A study of Capra hircus with 12 samples.

Results

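The miR-15/16 family was followed through the annual cycle of secondary hair follicles (SHFs), the small follicles that grow cashmere, in Liaoning cashmere goats. The members were the listed goat miRNAs named miR-15a, miR-15b, miR-16, miR-16a, miR-16b, miR-195, miR-497, miR-424, miR-322 or miR-503, with every listed arm. This gave 11 of the 376 listed miRNAs, namely miR-15a-5p, both arms of miR-15b, miR-16a-5p, both arms of miR-16b, both arms of miR-195, miR-497-5p and both arms of miR-424. miR-322 and miR-503 are not analysed here. The series has 12 small RNA libraries, 1 of female and 1 of male goats aged 1.5 years in each of 6 months. February and March stand for telogen (4 libraries), May for early anagen (2 libraries), September for mid-anagen (2 libraries) and November and December for catagen (4 libraries). The goats received no treatment that the labels name, and the follicles were cut from scapular skin under a microscope. The sources used here do not state how goats were combined into libraries, so the p-values measure the spread between these libraries.

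miRNAs guide silencing complexes to messenger RNAs through the seed, a short stretch near the start of the mature strand. The 5p arms of miR-15, miR-16, miR-195, miR-497 and miR-424 are known for a shared seed, and for repressing cyclin D1, cyclin E1, CDK6, WEE1, CHK1 and the survival factor BCL2. The family is therefore regarded as a brake on the cell cycle, made from several separate precursor clusters. The 3p arms come from the other strand of the same hairpins and have different seeds. In the RefSeq gene table, MIR15A lies next to MIR16A, and MIR15B and MIR16B lie together inside SMC4, which encodes a condensin subunit. MIR195 and MIR497 are neighbours, and MIR424 shares its neighbourhood with MIR450 and MIR542.

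Depth ranged from 3135292 to 5788032 miRNA counts per library, with a median of 4469051. The TPM deposited by the authors is the count scaled to the library's own total. Group tests used counts after TMM normalization, which also adjusts for the composition of a library, and its factors lay between 1.01 and 1.29 in the February, March and May libraries and between 0.813 and 0.916 in the September, November and December libraries. With scaling by library totals the median log2 fold change over all 300 tested miRNAs, taken from the first to the second of these sets of months, moved from 0.03 to -0.40. Differences in level below therefore depend on the scale. Both scales are given for the members whose sign or call between these sets of months changed with it. Among the 6 markers of epidermis and follicle epithelium that were listed, miR-203 and the miR-200 family included, the summed TPM lay between 56735 and 96687, while miR-205-5p is not analysed here.

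All 11 members had counts in all 12 libraries, and all 11 passed the filter of more than 5 CPM (counts scaled to a fixed library total) in at least 2 libraries. miR-16a-5p led the family at 3842 ± 772 TPM (SD, n = 12) and ranked 32 among the 376 miRNAs. miR-16b-5p followed with 1062 ± 150. miR-15b-5p (161 ± 33.6), miR-15a-5p (90.9 ± 43.8) and miR-424-5p (81.1 ± 35.6) were much less abundant. miR-195-3p (24.0 ± 9.30) and miR-497-5p (20.6 ± 10.6) were scarcer still. The other 4 members averaged between 3.75 TPM for miR-195-5p and 6.50 TPM for miR-16b-3p. Both miR-16 5p arms together supplied between 90.9% and 93.8% of the family's TPM in every library. In the plot of members by month, in TPM, 6 members form a higher set of points before the break between May and September and a lower set after it. They are miR-15a-5p, miR-16a-5p, miR-16b-5p, miR-16b-3p, miR-497-5p and miR-424-5p, and miR-195-3p has the opposite arrangement.

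**Figure D1:**
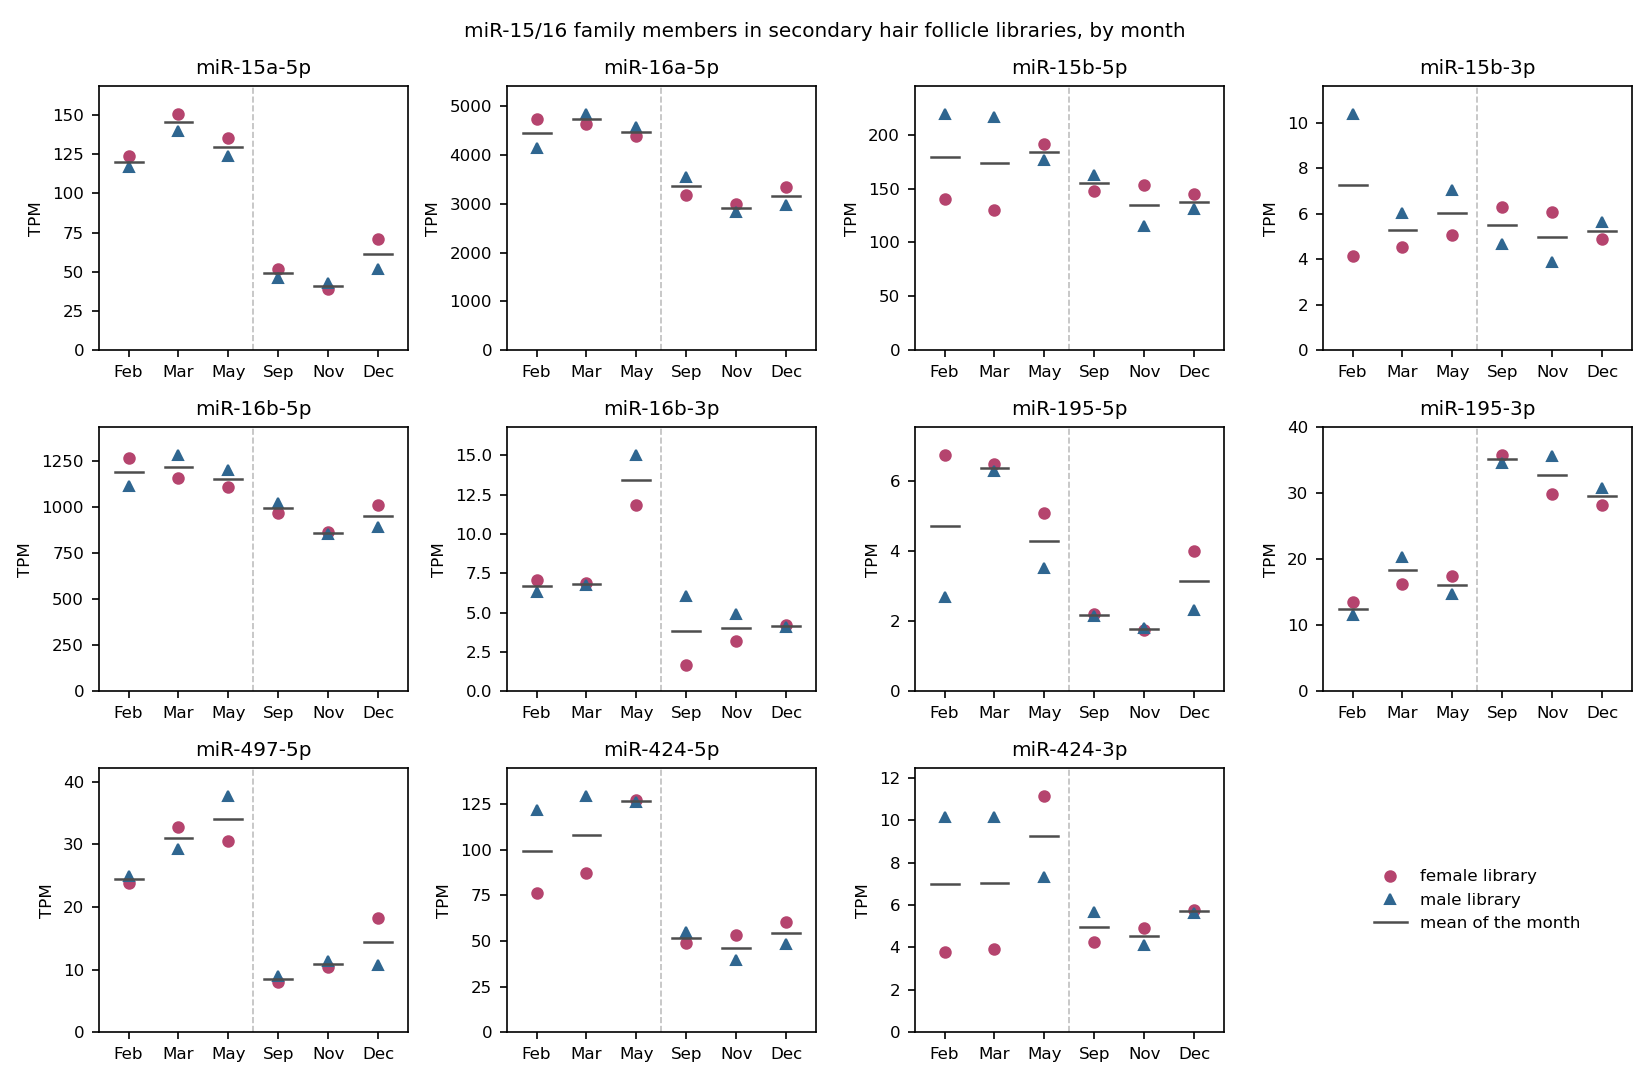
Each panel plots the deposited TPM (vertical axis, from 0) of a family member in the female and male library of each month (horizontal axis), with a bar at the month's mean and a dashed line between May and September. miR-15a-5p lies between 116 and 150 TPM before the line and between 38.8 and 70.9 after it, while miR-195-3p lies between 11.5 and 20.3 before and between 28.2 and 35.7 after.

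The family total was highest in March on the deposited scale, at a TPM of 6447 ± 314 (SD, n = 2). It was 6148 ± 175 in May and 6086 ± 436 in February, and the libraries of these 3 months overlapped. September (4668 ± 321.8), December (4421 ± 384) and November (4054 ± 156) followed, and each of them overlapped with its neighbour in this order. February and September did not overlap. As a share of all counts the family was lowest in the male November library, at 0.394%, with 95% Wilson limits of 0.388% and 0.401%. It was highest in the male March library, at 0.667%, with limits of 0.659% and 0.675%, and these limits cover counting error only. The totals were thus 1.42-fold higher in the 6 libraries of February to May (6227 ± 306) than in the 6 libraries of September to December (4381 ± 363).
After TMM normalization most of this difference was gone. The total was then 5417 ± 631 CPM from February to May and 5050 ± 270 CPM from September to December, with overlapping libraries, and the difference on the log2 scale went from -0.51 to -0.095. May, among the highest months by TPM, had the lowest mean CPM after TMM, at 4849. By precursor cluster, the miR-15a and miR-16a cluster held 4675 ± 255 TPM from February to May and 3192 ± 271 from September to December (SD, n = 6 each), mostly as miR-16a-5p. The miR-15b and miR-16b cluster held 1383 ± 78.1 and 1087 ± 85.8 TPM. The cluster of miR-424 went from 119 ± 26.3 to 55.9 ± 7.63 TPM, while that of miR-195 and miR-497, whose members moved in opposite directions, summed to 50.6 ± 7.19 and 46.1 ± 3.1 TPM. The totals are a description, and no test was made on them. In bulk follicles, fewer cells of a type and less RNA per cell cannot be told apart.

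**Figure D2:**
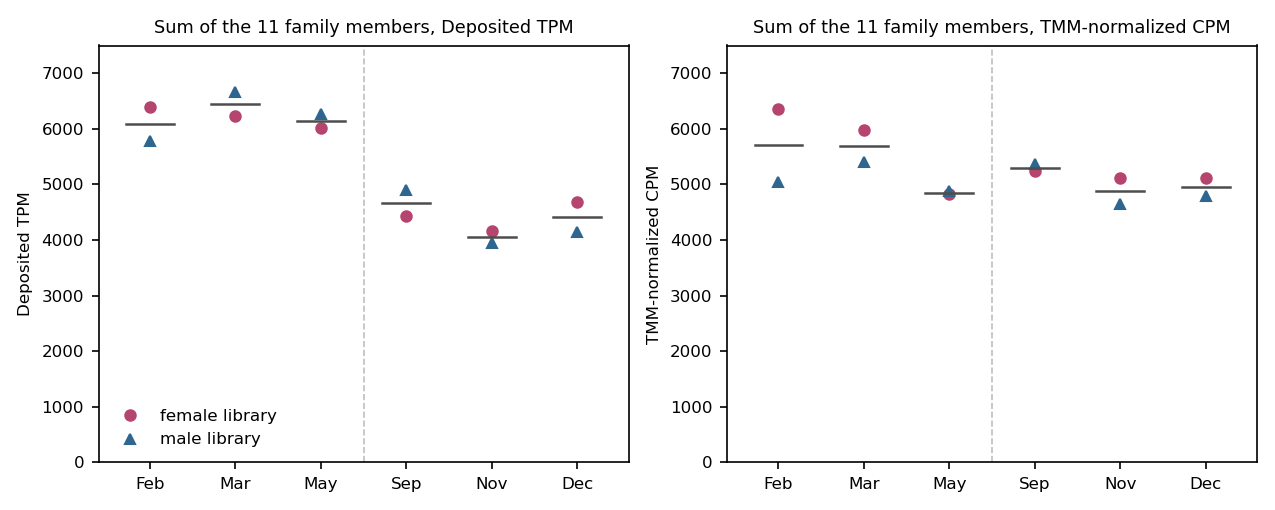
The summed level of the 11 members in each library is plotted by month, as deposited TPM (left) and as TMM-normalized CPM (right), both axes from 0, with a bar at the mean of the female and male library. By TPM the February to May libraries (5777 to 6669) lie above the September to December libraries (3944 to 4896), while by TMM-normalized CPM they overlap.

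The comparison of the February to May libraries with the September to December libraries, 6 against 6, asked which members changed with the season. This split was chosen with earlier results of these data known, so its p-values are not an independent test of the split. The comparison was a contrast of the fit with 4 phase groups by edgeR's quasi-likelihood test, in which telogen and catagen carried their larger number of libraries. Of the 11 members, 5 passed an adjusted p under 0.05, 4 lower and 1 higher in September to December. Among all 300 tested miRNAs, 49.0% passed, 21.3% lower and 27.7% higher, so the members' count lay near the background. The median log2 fold change was -0.16 over the members and 0.03 over all tested miRNAs. With library totals, 8 members passed, 7 of them lower, and over all tested miRNAs the split of calls went from 83 higher and 64 lower to 30 higher and 138 lower.

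**Figure D3:**
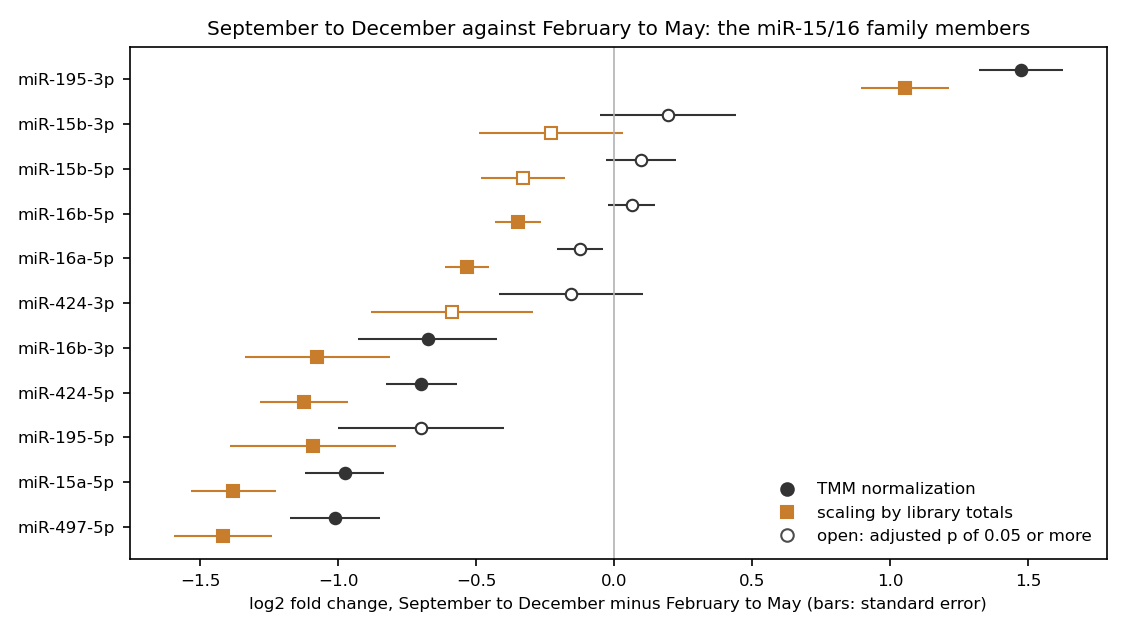
The log2 fold change of each member from the February to May libraries to the September to December libraries (horizontal axis) is shown with its standard error, as TMM-normalized (circles) and as scaled by library totals (squares), with filled symbols for an adjusted p under 0.05. miR-195-3p lies to the right of 0 on both scales, and miR-15a-5p, miR-497-5p and miR-424-5p lie to the left on both.

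miR-15a-5p, a 5p arm of the pair that is lost with the DLEU2 locus in human chronic lymphocytic leukaemia, had a lowest TPM of 116, a median of 129 and a highest TPM of 150 from February to May. From September to December these were 38.8, 48.9 and 70.9, and the groups did not overlap. Its log2 fold change was -0.98 (adjusted p = 0.000216 by edgeR's quasi-likelihood test, with a standard error of 0.14), and -1.38 with library totals. Among the later months the female December library was the highest.

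miR-497-5p, the partner of miR-195 and a repressor of the same cyclins, ran from 23.8 TPM (lowest) through 29.9 (median) to 37.6 (highest) from February to May. It ran from 7.96 through 10.5 to 18.2 TPM from September to December. The 2 sets of libraries stood apart, and September was the lowest month on both scales. May was highest by TPM, where it overlapped with March. After TMM normalization March was highest, at a mean of 27.6 CPM against 26.8 in May. The log2 fold change was -1.01 after TMM normalization (adjusted p = 0.000419 by edgeR's quasi-likelihood test, with a standard error of 0.16), the only decrease of at least 2-fold among the members on this scale. Over the alternative settings it ran from -1.42 to -0.96.

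miR-424-5p, which has the family seed and comes from a cluster of its own, had TPM values of 76.5, 124 and 129 (lowest, median and highest) in the earlier months. They were 39.7, 51.0 and 60.5 in the later months, again without overlap. The log2 fold change was -0.70 (adjusted p = 0.000808 by edgeR's quasi-likelihood test, with a standard error of 0.13). Over the alternative settings it ran from -1.12 to -0.64. In February and March the male libraries (122 and 129 TPM) were above the female ones (76.5 and 87.0), while in May both were close (127 and 126).
Its genomic neighbours miR-450-5p and miR-542-3p, which are not members and were named after their values were seen, did not pass after TMM normalization, while miR-542-3p passed with library totals (log2 fold change -0.54, adjusted p = 0.0358 in edgeR). miR-542-3p had a mean TPM of 143 ± 37.2 before and 98.7 ± 24.0 after the break (SD, n = 6 each, adjusted p = 0.578, edgeR's quasi-likelihood test), and miR-450-5p of 66.1 ± 26.0 and 58.4 ± 12.3 (adjusted p = 0.336).

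miR-195-3p, the strand opposite to the family arm of miR-195, was the member that rose. Its lowest, median and highest TPM were 11.5, 15.5 and 20.3 from February to May and 28.2, 32.7 and 35.7 from September to December. No library of the later months reached down to the earlier ones, and February was the lowest month and September the highest. The log2 fold change was 1.47 (adjusted p = 2.88e-05 by edgeR's quasi-likelihood test, with a standard error of 0.15), and 1.05 with library totals. After TMM normalization the libraries did not overlap for 3 members that were lower and 1 that was higher, against 6.33% and 13.7% of the tested miRNAs. By TPM this held for 6 lower members and 1 higher, against 17.3% and 2.67%.

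miR-16b-3p also passed, at a log2 fold change of -0.68 (adjusted p = 0.0412 by edgeR's quasi-likelihood test, with a standard error of 0.25). Its counts were only 9 to 49 per library, and the call was lost without the female February, male May, female September, female November, female December or male December library, with adjusted p up to 0.0845, and with 6 month groups in place of 4 phases (adjusted p = 0.0663). From May to September its call was lost with 6 month groups too (adjusted p = 0.0603). That call was also lost without the female May, male May or female September library, fits that leave a single library in a group. Its call from May to catagen was lost without the male May, female November or male December library. miR-16b-3p was lowest in the female September library (1.67 TPM) and highest in both May libraries (11.8 and 14.99).

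miR-16a-5p, miR-16b-5p and miR-15b-5p, the most abundant members, did not pass after TMM normalization with all 300 miRNAs and 12 libraries in the fit. miR-16a-5p had a lowest, median and highest TPM of 4140, 4592 and 4824 from February to May and of 2831, 3082 and 3551 from September to December, so on the deposited scale its groups did not overlap. Its log2 fold change was -0.12 after TMM normalization (adjusted p = 0.229 by edgeR's quasi-likelihood test, with a standard error of 0.08) and -0.53 with library totals (adjusted p = 0.000197). It passed without the male March library (-0.23, adjusted p = 0.0439), with more than 50 CPM required (-0.24, adjusted p = 0.0133) and with DESeq2 (-0.20, adjusted p = 0.0438).
miR-16b-5p had a TPM of 1189 ± 75.1 and of 935 ± 73.7 (SD, n = 6 each), and its log2 fold change turned from 0.06 after TMM normalization to -0.35 with library totals, where it passed (adjusted p = 0.00429). miR-15b-5p (0.10) and miR-15b-3p (0.20) turned sign in the same way, to -0.33 and -0.23, and passed on neither scale.
miR-195-5p and miR-424-3p had log2 fold changes of -0.70 and -0.16 and did not pass. miR-195-5p had only 6 to 39 counts per library. With library totals it passed at -1.09 (adjusted p = 0.00885), and it also passed with RLE (-0.78, adjusted p = 0.0409) and with sex as a block (-0.67, adjusted p = 0.0476), all by edgeR's quasi-likelihood test. It passed as well without the male February (-0.86), male March (-0.78) or female December library (-0.89).

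Between phases, the same 4 members, miR-15a-5p, miR-497-5p and miR-424-5p lower and miR-195-3p higher, passed from telogen to catagen, where 35.0% of all tested miRNAs passed, 14.0% lower and 21.0% higher. These 4 also passed from telogen to September, where 25.3% of all tested miRNAs did, 10.3% lower and 15% higher. From May to September 5 members passed, the same 4 in the same directions and miR-16b-3p, which was lower, against 34.0% of all tested miRNAs (15.3% lower and 18.7% higher). The same 5 passed from May to catagen, against 37.0% (16.3% lower and 20.7% higher). These comparisons share libraries, so their values are not independent. From telogen to catagen the log2 fold changes after TMM normalization were -1.03 for miR-15a-5p, -0.78 for miR-497-5p, -0.66 for miR-424-5p and 1.38 for miR-195-3p. From May to September they were -0.87, -1.47, -0.77 and 1.65.
With the study's limit of a 2-fold change added, 2 members were called from telogen to catagen (miR-15a-5p and miR-195-3p), where 10.7% of all tested miRNAs were. Between the seasons 2 were called as well (miR-497-5p and miR-195-3p, against 12.7%), and 1 without the female March, female November, male November or male December library. In the same way 3 were called from May to September (18.3%), 3 from telogen to September (9.33%) and 2 from May to catagen (16.7%). The May and September counts rested on single libraries. So did the calls of miR-15a-5p, miR-424-5p and miR-16b-3p from May to September, and those of miR-497-5p and miR-16b-3p from May to catagen. From May to September 2 members passed without the female September library and 3 without the male May or the male September library. From May to catagen 3 passed without the male May library, and from telogen to September 2 passed without the female September library. The call of miR-424-5p from telogen to September was lost without the female September, male September or male February library (adjusted p = 0.175, 0.101 and 0.0526) and in the fit of telogen and September libraries alone (adjusted p = 0.0685), all by edgeR's quasi-likelihood test. The call of miR-497-5p there was lost without the female September library (adjusted p = 0.0554). The number of 2-fold calls from telogen to catagen was 1 without the female March, female November or male November library. From May to catagen it was 1 without the male May, female November or male December library.

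No member passed from telogen to May, where 5.33% of all tested miRNAs did, and 1 had an unadjusted p under 0.05 with edgeR and 2 with DESeq2. The log2 fold changes of the 4 members above were then between -0.24 and 0.11, with standard errors of 0.19 to 0.23. No member passed from September to catagen either (0.0% of all tested), where miR-497-5p alone had an unadjusted p under 0.05 with edgeR's quasi-likelihood test, and DESeq2 also passed no member and gave 1 such p.
The sexes were compared in a fit that held month as a term. No member passed (0.0% of all tested), 1 member, miR-195-5p, had an unadjusted p under 0.05 with edgeR, and none had with DESeq2. The difference between the seasons was also tested for a difference between the sexes. No member passed and none had an unadjusted p under 0.05 with edgeR's interaction test (0.0% of all tested passed), while 1 had one with library totals.

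Because both counts come from the same library, ratios between members do not depend on the scaling. The 6 pairs compared were chosen after the values were seen, so their p-values are not an independent test. They come from a 2-sided exact permutation test over the 6 and 6 libraries, in which 0.00216 is the smallest p possible. Near-identical mature sequences such as those of miR-16a-5p and miR-16b-5p can share reads, and the sources used here do not state how such reads were assigned.
The ratio of miR-15a-5p to miR-16a-5p, which neighbour each other in the genome, was between 0.0261 and 0.0325 in the earlier months. In the later months it was between 0.0129 and 0.0212. The log2 ratio fell by 0.87, or 1.82-fold (p = 0.00216, exact permutation test, adjusted p = 0.00325 over 6 pairs). The ratios of the earlier and the later libraries did not overlap.
In the cluster inside SMC4 the ratio of miR-15b-5p to miR-16b-5p did not show such a change, with a log2 ratio of -2.76 ± 0.34 before and -2.72 ± 0.13 after the break (SD, n = 6 each, p = 0.792, exact permutation test). It was more spread in the earlier months.
The ratio of miR-16a-5p to miR-16b-5p was the tightest of the 6. It lay between 3.71 and 4.00 from February to May and between 3.27 and 3.48 from September to December, a change of only 1.14-fold that no library crossed (p = 0.00216, exact permutation test, adjusted p = 0.00325). The ratio of miR-15a-5p to miR-15b-5p changed by 2.13-fold with the same p. After TMM normalization miR-16a-5p and miR-15b-5p had log2 fold changes of only -0.12 and 0.10. The ratios of miR-15a-5p to these members therefore largely restate the fall of miR-15a-5p.
In the remaining cluster miR-195-3p and miR-497-5p changed places. In the earlier months the ratio of miR-195-3p to miR-497-5p was between 0.390 and 0.694, and in the later months between 1.55 and 4.49. The female December library had the lowest of the later values. The change was 5.59-fold (p = 0.00216, exact permutation test, adjusted p = 0.00325). By TPM every later library was above every earlier one for miR-195-3p and below every earlier one for miR-497-5p. Their ratio therefore had to separate, and this p adds no result to those of the 2 members. The ratio of miR-195-5p to miR-497-5p, the family arms of this cluster, changed by 1.31-fold, or 0.39 on the log2 scale, with 1 added to each count, and did not pass (p = 0.167, exact permutation test). With 5 added it changed by 0.52 (unadjusted p = 0.0281, exact permutation test), so at these low counts the outcome depends on the pseudocount.

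**Figure D4:**
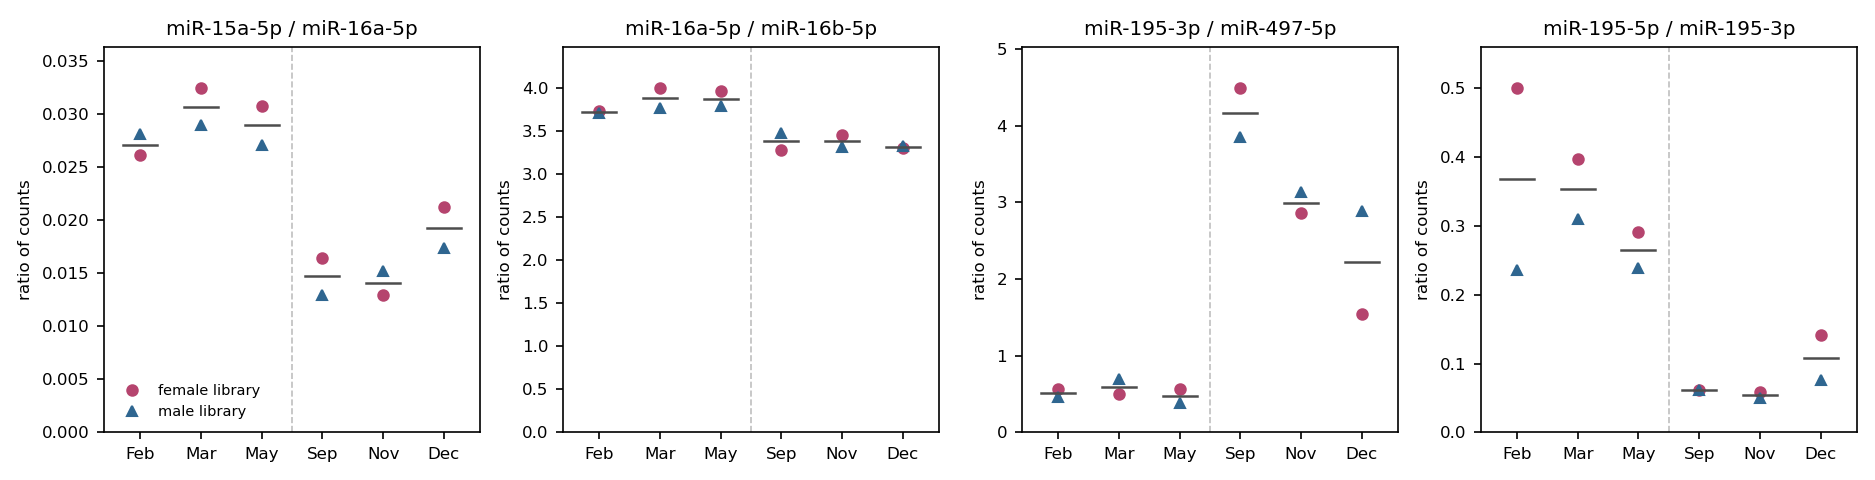
Ratios of counts (vertical axes, from 0) are plotted for each female and male library by month, with a bar at the month's mean and a dashed line between May and September. The ratio of miR-195-3p to miR-497-5p is at most 0.694 before the line and at least 1.55 after it, and that of miR-195-5p to miR-195-3p falls from 0.235 or more to 0.142 or less.

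Both arms were tested for miR-15b, miR-16b, miR-195 and miR-424, so the balance between the strands of these hairpins could be compared over the season with limma, as log2 of the 5p over the 3p count with 1 added to each. Of the 4 precursors, 3 passed, against 64.6% of all 82 precursors with both arms tested, of which 40.2% moved toward the 3p arm and 24.4% toward the 5p arm.
miR-195 had more 3p than 5p counts in all 12 libraries. Its 5p to 3p ratio lay between 0.235 and 0.5 from February to May and between 0.0507 and 0.142 from September to December, without overlap. The log2 ratio changed by -2.09 (adjusted p = 4.46e-07 by limma, with a standard error of 0.23), or 4.25-fold toward the 3p arm, and 1 of the 82 precursors had a more negative change.
For miR-424, whose 5p arm was the more abundant in every library, the 5p to 3p ratio was 11.5 to 22.1 before and 8.59 to 11.4 after the break. Its log2 ratio fell by 0.63 (adjusted p = 0.00896 by limma, with a standard error of 0.19). miR-16b moved the other way, toward the 5p arm, by 0.78 (adjusted p = 0.00641 by limma, with a standard error of 0.23), with ratios of 80.3 to 189 and of 168 to 581 that overlapped. Its February and March ratios (169 to 189) lay within the later range, and only the May libraries (93.4 and 80.3) lay below it. The ratio of 581 came from the female September library, with 9 counts of miR-16b-3p. The ratio of miR-15b changed by -0.13 and did not pass (adjusted p = 0.592, limma).

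Over the 12 libraries, log2 levels of miR-16a-5p after TMM normalization had a Pearson correlation of 0.73 with miR-16b-5p, and of 0.97 and 0.89 within the earlier and the later 6 libraries. With miR-195-5p it was 0.75, with miR-15a-5p 0.56, with miR-497-5p 0.35, with miR-424-5p 0.21 and with miR-195-3p -0.33. Except with miR-16b-5p, these values did not hold in both the earlier and the later 6 libraries. There they were 0.85 and 0.09 with miR-195-5p, 0.83 and -0.02 with miR-15a-5p, and 0.19 and -0.36 with miR-497-5p. With miR-424-5p they were -0.90 and 0.68, and with miR-195-3p 0.47 and -0.11. miR-15a-5p, miR-497-5p and miR-424-5p correlated with each other at 0.79 to 0.90, and with miR-195-3p at -0.91 to -0.87. After TMM normalization the earlier and the later libraries of each of these members did not overlap. Strong correlations of these signs therefore follow largely from the seasonal split and add no result to it. For these pairs no values within the earlier or the later libraries are given, so variation together within a season was not tested. Outside the family, over all 12 libraries, miR-214-3p (0.81), miR-141 (0.78), miR-29a-3p (0.76), miR-21-5p (0.75) and miR-135a (0.74) were the miRNAs most like miR-16a-5p. Within the earlier and the later libraries miR-214-3p (0.82 and 0.67) and miR-21-5p (0.69 and 0.76) stayed alike. In the later ones miR-141 (0.88 and 0.06), miR-29a-3p (0.83 and -0.26) and miR-135a (0.85 and 0.23) did not. The least alike were miR-30b-3p (-0.87), novel_463 (-0.82) and miR-1307-3p (-0.79). These values describe 12 libraries that share the season, the sex and the scaling, and the values depend on that scaling. With log2(TPM + 1) in place of TMM the correlation with miR-16a-5p was 0.97 for miR-16b-5p, 0.85 for miR-195-5p, 0.95 for miR-15a-5p, 0.88 for miR-497-5p, 0.88 for miR-424-5p and -0.85 for miR-195-3p. For miR-30b-3p it was then 0.15.

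Other miRNAs linked to the cell cycle are a frame for these values. Of 13 growth-linked miRNAs, made up of the miR-17 and miR-106b clusters, their relatives miR-20b and miR-106a, and miR-221 and miR-222, 9 passed in the comparison of seasons, 7 lower and 2 higher in September to December, beside the 49.0% of all tested miRNAs that passed (21.3% lower and 27.7% higher). miR-20b (-0.86) and miR-106b-5p (-0.86), which repress the inhibitor p21, fell the most in this list, and miR-25-3p (0.62), of the same hairpin cluster as miR-106b, rose. Of 13 tested restraint-linked miRNAs, the let-7 family with miR-98, miR-26 and miR-34, 6 passed, 5 of them higher, and the number that passed is near the same background. let-7f-5p, a repressor of RAS and MYC, was at 0.63. The calls in both lists are those after TMM normalization and depend on the scale. Those of miR-25-3p and let-7f-5p were lost with library totals (0.20 and 0.21). let-7g-5p, called higher (0.36), had a mean TPM of 40481 before and 39018 after, so it did not rise on the deposited scale. let-7e-5p, let-7f-5p, let-7i-5p and miR-26a-5p, the others called higher among the restraint-linked miRNAs, rose by mean TPM.
Other cell types were followed by marker miRNAs, and their part in these results was not tested. The calls given here are those after TMM normalization, while the sums are of TPM. The 2 listed erythrocyte markers, miR-451-5p and miR-144-5p, had a summed TPM of 24.5 to 115 before and of 5.41 to 28.3 after the break, and miR-144-5p passed (lower). The summed TPM of the 4 listed leukocyte markers was 416 to 664 before and 393 to 588 after, with 1 of 4 passing (higher). The 2 endothelial markers summed to 9022 to 12699 and to 8819 to 11616, with 1 passing in each direction. miR-126-3p, called higher, had a mean TPM of 9805 before and 9578 after, so it did not rise on the deposited scale. The 4 muscle markers summed to 1805 to 3544 and to 2408 to 3480, with 1 of 3 tested passing (higher). The 7 mesenchymal markers summed to 122500 to 145705 and to 117674 to 147963, and all 7 passed, 5 lower and 2 higher. Of the 6 epithelial markers 3 passed, 2 of them higher. By mean TPM, miR-203, called higher, did not rise (63282 before and 63178 after), while miR-200a, also called higher, did (1443 and 1760). All the other epithelial markers, miR-200b, miR-200c, miR-141 and miR-429, were lower after the break by mean TPM. Of these only miR-141 was called lower.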

How the data were processed

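Small RNA of isolated SHFs was sequenced in 12 libraries. The authors removed adapters and mapped reads to CHIR_2.0. Their notes name Bowtie 0.12.9, miREvo and mirDeep2. They deposited raw counts and TPM of 376 miRNAs per library. The TPM that they deposited matches the count over the library total, on the same scale, to within 0.005. Molecular identifiers are not mentioned in the sources used here, and libraries of the same month differed beyond sampling noise.

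Counts were tested here in R 4.3.3 with edgeR 4.0.16 (TMM, glmQLFit and glmQLFTest, 4 phase groups, all 12 libraries, Benjamini-Hochberg adjustment over 300 miRNAs). As in the study, miRNAs with more than 5 CPM in at least 2 libraries were tested, and 2-fold calls are given beside adjusted p under 0.05. Standard errors are the log2 fold change over the square root of F. Arm ratios used limma 3.58.1, and correlations used log2 CPM with a prior count of 1. The fits were tested on simulated data.

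The members, the lists and the seasonal contrast were chosen with earlier results of these data known. Named are all members, the 5 miRNAs most and 3 least like the most abundant member, up to 2 cell cycle miRNAs with the largest change in each direction, and, chosen after their values were seen, the neighbours of miR-424. Alternatives were DESeq2 1.42.0, RLE, library totals, a likelihood-ratio test, other filters, phase fits restricted to their own groups, sex as a block, 6 month groups and each library left out. Gene neighbours are those of RefSeq on ARS1.2, which is not the assembly used by the authors, and coordinates are left out. Mature sequences were not used here, so miRNAs outside the family that share its seed could not be sought.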

Additional observations from a re-analysis of the deposited data

Results flagged for a closer look

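Within the groups of 4 libraries, 1 of 22 combinations of a member with telogen or catagen had a library apart from the others, where chance gives about 1 in 20. miR-497-5p in catagen was at 19.9 TMM-normalized CPM in the female December library, against 12.3 to 13.4 CPM in the other 3 libraries.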

How the results depend on the processing

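miR-15a-5p, miR-424-5p, miR-497-5p and miR-195-3p kept their direction and their call between the seasons in every alternative run for them, as did the arm ratios of miR-16b, miR-195 and miR-424. The cause of the other shifts was not tested, except that only 5 members remained tested with more than 50 CPM required. With library totals the members past the test were 8 between the seasons and 7 from telogen to catagen, and with the 2-fold limit 6 between the seasons, 5 from telogen to catagen, 5 from telogen to September, 5 from May to September and 4 from May to catagen. With more than 50 CPM required, 3 passed between the seasons, 2 from telogen to September, 2 from May to September and 2 from May to catagen, and with the 2-fold limit 1, 1, 1 and 1 between the seasons, from telogen to catagen, from telogen to September and from May to September, and 0 from May to catagen.
Over fits that left out 1 library each, the members past the test were 4 to 7 between the seasons, 4 to 6 from telogen to catagen, 2 to 4 from telogen to September, 2 to 5 from May to September and 3 to 5 from May to catagen. With the 2-fold limit they were 1 to 3 between the seasons and from telogen to catagen, 2 to 4 from telogen to September and from May to September, and 1 to 3 from May to catagen. The family total by TMM-normalized CPM differed by -0.095 on the log2 scale. Signs turned for members near 0. With library totals the log2 fold change was -0.23 for miR-15b-3p, -0.33 for miR-15b-5p, -0.35 for miR-16b-5p and -0.17 for miR-450-5p. With more than 50 CPM required it was -0.031 for miR-15b-5p and -0.056 for miR-16b-5p, and for miR-16b-5p it was -0.014 with RLE and -0.014 with DESeq2. Leaving out 1 library gave -0.0096 to 0.17 for miR-15b-5p, -0.060 to 0.11 for miR-16b-5p and -0.045 to 0.12 for the ratio of miR-15b-5p to miR-16b-5p. Members with under 50 counts per library (miR-195-5p, miR-16b-3p, miR-15b-3p and miR-424-3p) had the largest standard errors, 0.25 to 0.30.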
